A study of Mus musculus with 2 samples.

Results

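*Akap12* (ENSMUSG00000038587) was described in an RNA immunoprecipitation of FMRP from testis, as 1 gene of the 4788 genes in the deposited table. It was chosen by its measured level in the FMRP RIP library, so its high level and its ratio to the input are given as a description, with no test. The study sequenced 1 input library, which is RNA of the lysate kept back before precipitation, and 1 FMRP RIP library, which is RNA recovered with an anti-FMRP antibody. Both came from the testis of adult wild-type male mice. With 1 library per group there was no replicate check, and no library from a control antibody was used here. Of the 4788 rows, some repeat a gene, such as those of *Iqcn*, *Gcc2* and *Zhx1*, with equal values on a chromosome and on another assembled sequence. Counts of genes given here are thus counts of rows. Each row is for a protein-coding gene called higher in the FMRP RIP. That call, made by the authors, required a minimum fold change, and not only a higher value than in the input. Passing this minimum was thus a condition for being listed, and genes that are not listed have no value here. The lowest ratios given below lie close to this minimum, so they show little beyond the condition for listing.

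*Akap12* encodes a kinase anchoring scaffold, also known as gravin or SSeCKS. A-kinase anchoring proteins bind the regulatory subunits of protein kinase A (PKA), the kinase that cyclic AMP (cAMP) activates, and hold it at a chosen place in the cell next to its substrates. The AKAP12 protein in addition binds protein kinase C and lies mainly at the plasma membrane and the cortical cytoskeleton. In sperm, cAMP and PKA drive flagellar beating and capacitation, and the anchoring proteins AKAP3 and AKAP4 build the fibrous sheath of the tail. FMRP is an RNA-binding protein found with polyribosomes, where it holds back translation of many mRNAs, and its loss causes fragile X syndrome.

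Depth was high in both libraries. The values are CPM, the reads of a gene scaled to a common library size, and their step size put the totals at 30849871 reads for the input and 36506932 reads for the FMRP RIP. The listed genes together took 14.2% of all reads before and 55.2% after precipitation, a ratio of 3.89. A CPM value is not corrected for transcript length, and no transcript lengths were used here, so the order of genes by CPM is an order of reads and not of molecules. Marker genes said little about the tissue, because few of them were listed and the others have no value here. Of 9 germ cell markers 1 was listed (*Sycp1*, a synaptonemal complex protein, input 10.5 CPM, FMRP RIP 23.8 CPM). Of 5 peritubular and vascular markers 1 was listed (*Vwf*, von Willebrand factor, 8.46 CPM and 18.5 CPM). None of 5 Sertoli and none of 5 Leydig cell markers were listed. These are counts only, since the share of all protein-coding genes that were listed is not given here.

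The *Akap12* level was 98.3 CPM before precipitation and 4461 CPM after it. These levels correspond to 3031 and 162856 reads. The ratio of the CPM values was 45.4, with an exact Clopper-Pearson 95% interval of 43.8 to 47.1, which covers counting error only. In terms of whole libraries, the share of *Akap12* was 0.00983% before (interval 0.00948% to 0.0102%) and 0.446% after precipitation (interval 0.444% to 0.448%). With 1 CPM added to each value, which understates the change of low genes, the log2 fold change was 5.49, against a median of 1.35 and quartiles of 0.92 and 2.0 over all listed genes. The gene lies on the plus strand of chromosome 10, from 4266380 to 4359470 in GRCm38 (mm10), a span of 93.1 kb.

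The place of *Akap12* among the listed genes depended on the library. By input reads it ranked 312, and by FMRP RIP reads it ranked 4. The genes above it in the FMRP RIP were *Atp8b3*, a phospholipid flippase, with 7861 CPM, *Odf2*, a protein of the outer dense fibres of the sperm tail, with 6271 CPM, and *Eef2*, translation elongation factor 2, with 4829 CPM. Below it came *Hk1*, hexokinase 1, with 3279 CPM, and *Eef1a1*, another elongation factor, with 3228 CPM. These 5 genes differed from *Akap12* in the input, where they had between 482 and 1819 CPM. Their ratios lay between 1.77 and 6.80, all below that of *Akap12*.

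The gain of *Akap12*, its CPM in the FMRP RIP minus that in the input, was 4363 CPM. That was the third highest gain after *Atp8b3* (6679 CPM) and *Odf2* (5347 CPM), and it made up 1.06% of the summed gain of all listed genes. Among the listed genes alone, the share of reads on *Akap12* went from 0.0692% to 0.808%.

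**Figure D1:**
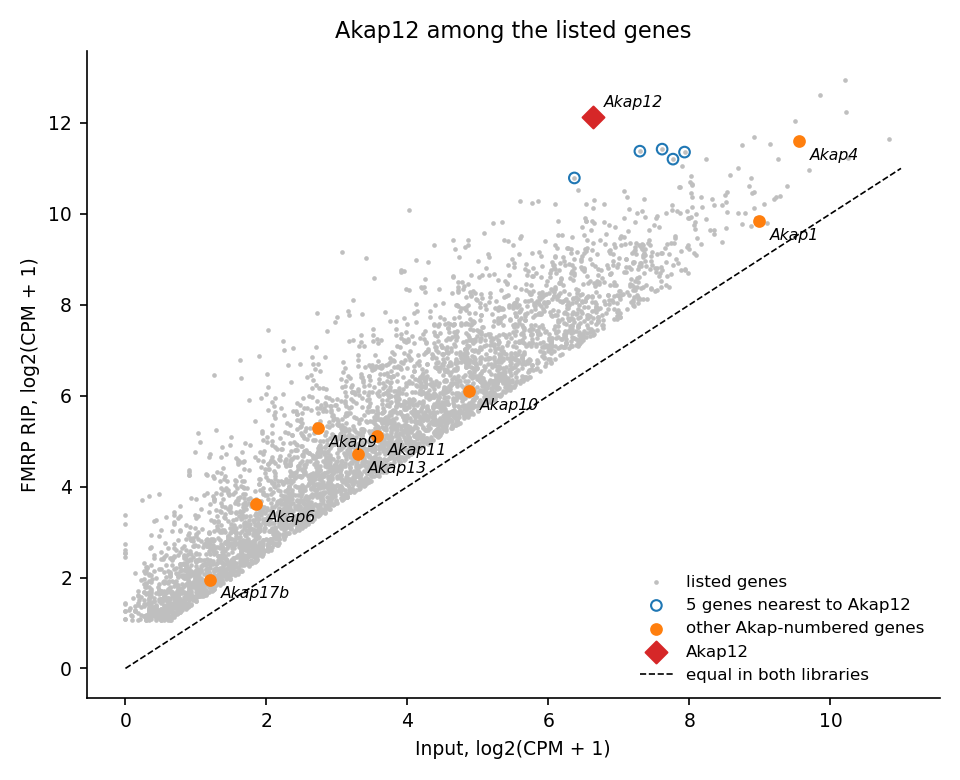
Level of each of the 4788 listed genes before (x axis, input) and after precipitation (y axis, FMRP RIP), both as log2(CPM + 1), with 1 point per gene and 1 library per axis. Akap12 stands above the cloud at an input of 98.3 CPM and an FMRP RIP level of 4461 CPM, while the other 8 Akap-numbered genes lie within it, and the dashed line marks equal values in both libraries.

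By log2 fold change *Akap12* ranked 4 of the 4788 listed genes, and it differed in read depth from the genes around it. Above it were *Csnka2ip*, which encodes an interactor of a casein kinase 2 subunit (6.08), *Ms4a14*, a membrane-spanning protein (6.07), and the predicted gene *Gm45861* (5.61). Just below it were *Hivep1*, a zinc finger transcription factor (5.43), *Satl1*, an acetyltransferase-like gene (5.2), and *Mki67*, the Ki-67 proliferation antigen (5.16). In the input these 6 genes had between 1.39 CPM (*Satl1*) and 15.2 CPM (*Ms4a14*), against 98.3 CPM for *Akap12*. In the FMRP RIP they had between 86.8 CPM (*Satl1*) and 1085 CPM (*Ms4a14*).

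Without a pseudocount, 8 genes had a higher ratio of CPM than *Akap12*, and 13 genes listed at 0 in the input have no ratio. The input level of those 8 genes did not exceed 15.2 CPM. Of the 4774 other genes above 0 in the input, 4736 had an interval wholly below that of *Akap12* and 35 had an interval that overlapped it. Only *Csnka2ip* (67.2 to 87.6), *Ms4a14* (65.3 to 78.5) and *Gm45861* (48.0 to 60.6) had an interval wholly above it. The 35 overlapping genes rested on few input reads, between 1 and 173, so that their order relative to *Akap12* was not resolved at this depth.

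The contrast was sharper among genes with many input reads. Where the input reached 50 CPM or more, which was so for 708 genes, the ratio of *Akap12* was followed by 22.4 for *C2cd6*, a sperm calcium channel-associated gene. This depended on the limit. *Spag17*, just under it with 47.2 CPM in the input, had a ratio of 26.3. Among the 2317 genes with 10 CPM or more, *Ms4a14* had a higher ratio than *Akap12*, 71.5. An FMRP RIP level of 2000 CPM or more was reached by 19 genes, and the other 18 had between 156 and 1819 CPM in the input. The next ratio among those was 17.0, for *Mroh2b*, a HEAT-repeat gene.

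Listed genes with a similar input were used as the nearest comparison. A total of 367 other genes had an input within a factor of 1.5 of that of *Akap12*, between 65.5 and 147 CPM. Their FMRP RIP levels ran from 111 CPM to 1769 CPM with a median of 278 CPM, and none reached the 4461 CPM of *Akap12*. Their median log2 fold change was 1.55, with quartiles of 1.09 and 2.25. *Akap12* lay 3.94 above that median. When every listed gene was set against its own neighbours in input in the same way, which was possible for 4720 genes with at least 50 neighbours, this excess ranked 7. The genes just above it in this order were *Gm45861* (4.09), *Satl1* (4.08) and *Mki67* (4.0), and just below it were *Usf3*, a transcription factor gene (3.73), *9930021J03Rik* (3.68) and *Gm11639* (3.64).

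The gene that came next to *Akap12* at a similar input was *Plec*. It encodes plectin, a large linker of cytoskeletal filaments, and rose from 81.6 CPM to 1769 CPM, a ratio of 21.7 (interval 20.8 to 22.6) and a log2 fold change of 4.42. After it came *4932415D10Rik*, from 67.6 to 1187 CPM (log2 fold change 4.12), and *Lrrc8b*, a subunit of volume-regulated anion channels, from 84.3 to 1465 CPM (log2 fold change 4.10). These were the only others of the 367 with a log2 fold change above 4, and 24 were above 3.

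Genes whose input was closest to 98.3 CPM spread widely in the FMRP RIP. *Lrrc41*, a leucine-rich repeat gene, went from 98.4 to 160 CPM. *Supt5*, a transcription elongation factor, went from 98.5 to 171 CPM. *Hectd4*, a ubiquitin ligase gene, had 98.1 and 1119 CPM, and *4932438A13Rik* had 98.7 and 1265 CPM. From almost the same number of input reads, the ratios of these genes ran from 1.63 (*Lrrc41*, interval 1.56 to 1.70) to 12.8 (*4932438A13Rik*, interval 12.4 to 13.3), and that of *Akap12* was 45.4.

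**Figure D2:**
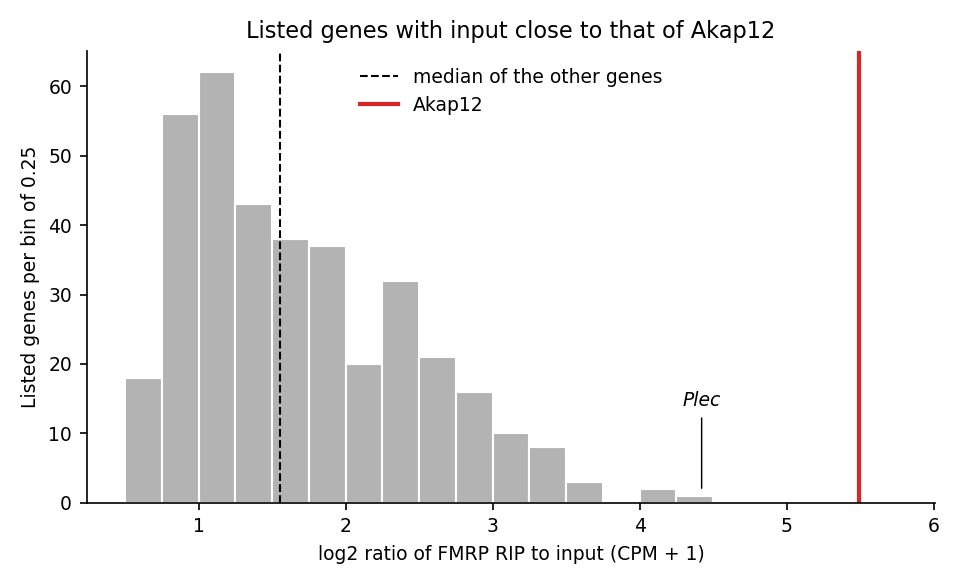
Log2 fold change of FMRP RIP over input (CPM + 1) for the 367 listed genes with an input between 65.5 and 147 CPM, counted in bins of equal width (bars), with their median of 1.55 (dashed line) and Akap12 at 5.49 (red line). The highest of the other genes, Plec, lies at 4.42, and no gene lies between it and Akap12.

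The genes whose pair of values was most like that of *Akap12* were found by the Euclidean distance between their log2(CPM + 1) values in these 2 libraries. The closest were *Mroh2b* (distance 1.0), *Ubr4*, a ubiquitin ligase (1.20), *Plec* (1.36), *Trip12*, another ubiquitin ligase (1.46), and *Pabpc1*, the cytoplasmic poly(A)-binding protein (1.51). *Mroh2b* went from 156 to 2661 CPM, and *Pabpc1* from 243 to 2624 CPM. All 5 had a lower ratio than *Akap12*, between 10.8 and 21.7. A distance of 1.0 to the closest gene was the largest of all 4788 listed genes, where the median distance to the closest gene was 0.0278. *Ms4a14* (0.85) and *Eef1a1* (0.72) followed. The distance was chosen as a measure with the level of *Akap12* known, so its rank is a description.

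The other A-kinase anchoring proteins did not share the ratio of *Akap12*. In RefSeq, 15 protein-coding mouse genes have a symbol of Akap and a number, and 9 of them were listed. The share of all protein-coding genes that were listed is not given here, so the number listed is only a count. *Akap3*, *Akap5*, *Akap7*, *Akap8*, *Akap8l* and *Akap14* were not listed. Of the 9, 7 had a log2 fold change above 1, where 70.1% of all listed genes did. The median log2 fold change of the 9 was 1.54, and that of the 8 without *Akap12* was 1.48, close to the 1.35 of all listed genes. The 8 together went from 1319 to 4214 CPM, a ratio of 3.20.

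*Akap4*, the major protein of the fibrous sheath, had the most reads of the family in the input. Its level was 752 CPM there and 3118 CPM after precipitation, where it ranked 8 of all listed genes. Its ratio was 4.14 (interval 4.09 to 4.20). *Akap1*, which anchors PKA and mRNA at the outer mitochondrial membrane, had 509 and 918 CPM, a ratio of 1.80 (interval 1.77 to 1.84), the lowest of the family. Both genes thus had narrow intervals far below that of *Akap12*.

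The remaining members had fewer reads. *Akap9*, a large scaffold of the centrosome and Golgi apparatus, went from 5.64 to 38.0 CPM. Its ratio of 6.74 (interval 5.75 to 7.94) was the second highest of the family. *Akap6*, a scaffold of the nuclear envelope in muscle, had 2.63 and 11.3 CPM, a ratio of 4.32 (interval 3.40 to 5.55). The intervals of *Akap9* and *Akap6* did not overlap, whereas those of *Akap6* and *Akap4* did.

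*Akap11*, which binds PKA and protein phosphatase 1, had 10.9 and 33.5 CPM, a ratio of 3.08. *Akap13*, which is also a guanine nucleotide exchange factor, had 8.79 and 25.3 CPM, a ratio of 2.88. *Akap10*, a dual-specificity anchor, had 28.3 and 67.7 CPM, a ratio of 2.39. *Akap17b*, with only 40 input reads, had 1.30 and 2.88 CPM, a ratio of 2.22 (interval 1.53 to 3.28). Its log2 fold change with the pseudocount was 0.76, which together with the 0.85 of *Akap1* lay under 1. Between *Akap12* and *Akap9* the ratio differed 6.74-fold, or by 2.94 in log2 fold change.

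Of the reads of the 9 genes together, *Akap12* held 6.93% before (interval 6.70% to 7.18%) and 51.4% after precipitation (interval 51.2% to 51.6%). The share of *Akap4* went from 53.1% to 35.9%, and that of *Akap1* from 35.9% to 10.6%. The order of the 3 genes by reads was thus *Akap4*, *Akap1*, *Akap12* in the input, and it became *Akap12*, *Akap4*, *Akap1* in the FMRP RIP. A share within a group falls when another member rises, and both *Akap4* and *Akap1* had a higher CPM in the FMRP RIP.

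**Figure D3:**
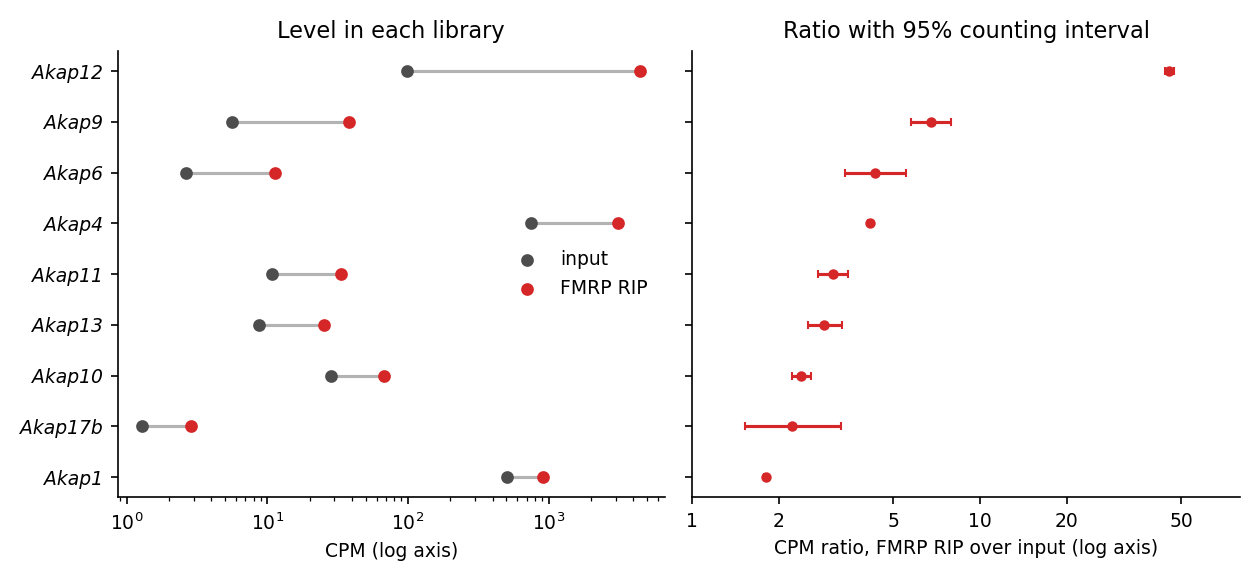
The 9 listed Akap-numbered genes, with the CPM of each library on a log axis (left) and the ratio of the CPM values on a log axis (right), where bars are exact 95% intervals for counting error and there is 1 library per group. Akap12 has a ratio of 45.4, while the other 8 lie between 1.80 and 6.74.

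Genes of the pathway that AKAP12 belongs to were read beside it. For each list the number listed is a count only, since the share of all protein-coding genes that were listed is not given here. Of 9 genes for subunits and inhibitors of PKA, 1 was listed, *Prkar2a*, which encodes the regulatory subunit RII alpha that anchoring proteins bind. It went from 61.1 to 168 CPM, a ratio of 2.75 (interval 2.61 to 2.90) and a log2 fold change of 1.45. The catalytic subunit genes *Prkaca* and *Prkacb* were not listed.

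Of 18 genes for binding partners of AKAP12 or for enzymes it assembles, 3 were listed, all isoforms of protein kinase C. *Prkcd* had 166 and 346 CPM (ratio 2.09), *Prkca* 1.39 and 4.71 CPM (ratio 3.38), and *Prkce* 2.63 and 8.82 CPM (ratio 3.36). *Plk1* and *Src* were not listed.

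Of 30 genes that make, break down or sense cAMP, 17 were listed, and 11 of the 17 had a log2 fold change above 1, beside 70.1% of all listed genes. The median of the 17 was 1.5, beside 1.35 over all listed genes. Among them, 11 of 16 phosphodiesterases were listed, and 8 of those were above 1, a share near the same 70.1%. *Pde2a*, a phosphodiesterase stimulated by cGMP, had the highest log2 fold change of the list at 2.76, but rested on 50.6 input reads (1.64 to 16.8 CPM, ratio 10.3, interval 7.65 to 13.8). *Pde4a*, a cAMP-specific phosphodiesterase, had 19.5 and 116 CPM (log2 fold change 2.51), and *Pde3b* 16.8 and 80.5 CPM (2.19). *Pde10a* had 26.7 and 120 CPM (2.12), and *Pde8a* 82.7 and 326 CPM (1.97). Not above 1 were 6 of the 17: *Pde4b* (0.64), *Adcy2* (0.65), *Pde8b* (0.70), *Adcy1* (0.80), *Pde7a* (0.89) and *Rapgef4* (0.90). Of 10 adenylyl cyclases, 5 were listed. *Adcy10*, the soluble adenylyl cyclase that makes cAMP in sperm, had the most reads of the list, and went from 366 to 819 CPM, a ratio of 2.24 (log2 fold change 1.16).

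Of 17 anchoring proteins that carry other names, 11 were listed. Of these, 8 were above 1, beside 70.1% of all listed genes, and their median log2 fold change was 1.57, beside 1.35. *Synm*, an intermediate filament protein, had the highest at 3.03, from 1.46 to 19.1 CPM on 45 input reads. *Pcnt*, pericentrin of the centrosome, had 12.9 and 86.0 CPM (log2 fold change 2.65), and *Arfgef2*, an ARF exchange factor, had 44.4 and 250 CPM (2.46). *Rsph3a* and *Rsph3b*, radial spoke genes that are near copies of each other and carried fractions of reads, had 0.96 and 1.10, so the split of reads between them is uncertain.

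Sperm proteins with a domain like that of the PKA regulatory subunit, and their fibrous sheath partners, were listed in 3 of 6 cases. *Fsip2*, a fibrous sheath interacting protein, went from 30.0 to 305 CPM, a ratio of 10.2 (interval 9.50 to 10.9). *Cabyr*, a calcium-binding protein of the fibrous sheath, had 90.0 and 199 CPM (ratio 2.21), and *Spa17* had 20.6 and 42.3 CPM (ratio 2.06). *Cabyr* had an input close to that of *Akap12*, and the *Akap12* level in the FMRP RIP was 4461 CPM against its 199 CPM. Over all 80 genes of these lists, 35 were listed and 26 of those were above 1, a share near the 70.1% of all listed genes, with a median log2 fold change of 1.44 beside 1.35. Their ratios ran from 1.63 (*Nbea*) to 13.1 (*Synm*), and no interval reached that of *Akap12*.

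**Figure D4:**
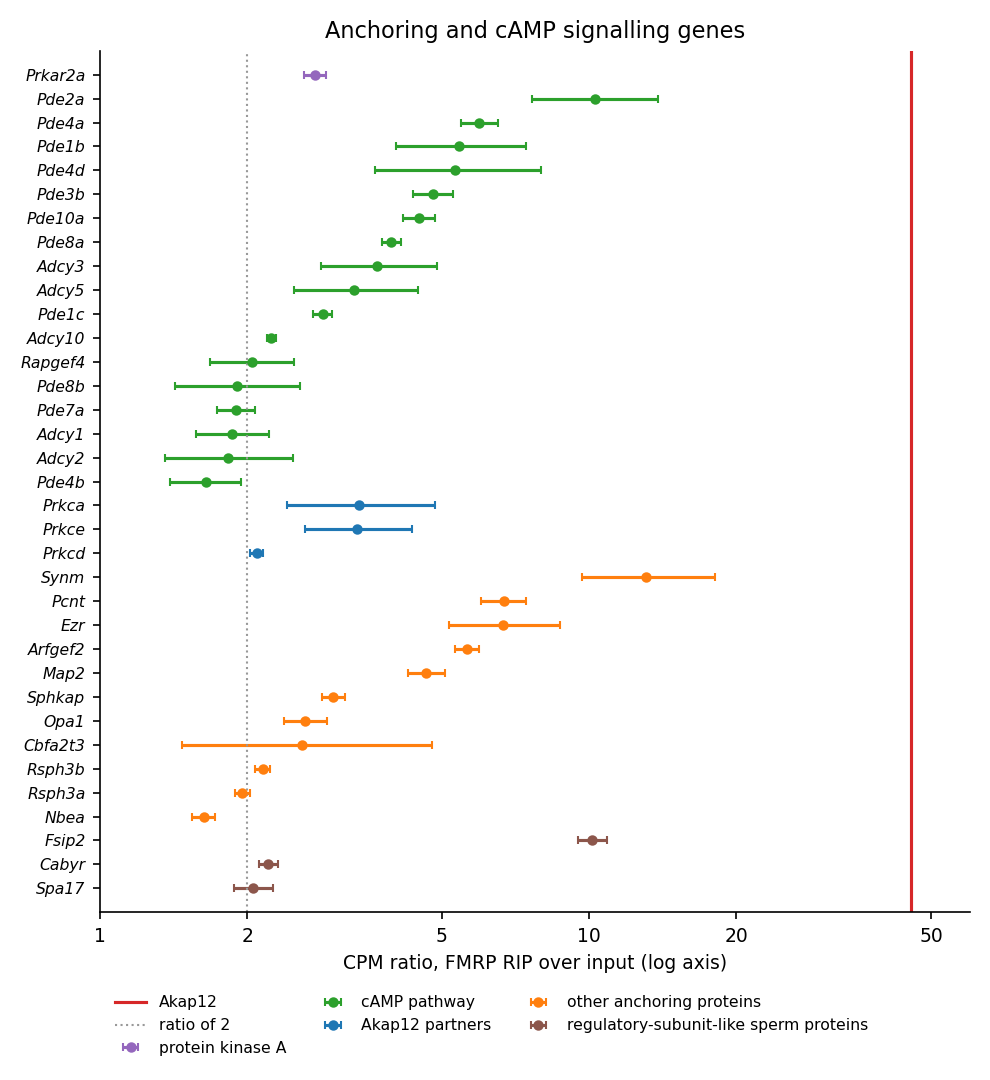
Ratio of CPM in the FMRP RIP over the input, without a pseudocount and on a log axis, for the 35 listed genes of the PKA, cAMP pathway, AKAP12 partner, anchoring protein and sperm protein lists, where bars are exact 95% intervals for counting error. All 35 lie between 1.63 and 13.1, left of the red line for Akap12 at 45.4.

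Position and size of the gene were looked at as well. Within 500 kb of *Akap12*, RefSeq has 7 other protein-coding genes, and 3 of them were listed. This is a count only, since the share of all protein-coding genes that were listed is not given here. *Zbtb2*, a zinc finger repressor that ends 7.60 kb from the *Akap12* end on the opposite strand, went from 1.04 to 3.15 CPM, a ratio of 3.04 (interval 2.04 to 4.65). *Rmnd1*, a mitochondrial translation factor, had 20.3 and 112 CPM, a ratio of 5.54 (interval 5.10 to 6.05), and *Plekhg1*, a guanine nucleotide exchange factor, had 6.22 and 20.6 CPM, a ratio of 3.31 (interval 2.82 to 3.89). The ratios of these 3 genes were far below that of *Akap12*, and the other neighbours have no value here. A long noncoding RNA gene, *Gm40592*, lies within the span of *Akap12*, from 4277378 to 4310710, and whether the counting used strand is not given in the sources used here.

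Among the 1182 other listed genes with a span within a factor of 1.5 of that of *Akap12*, the median log2 fold change was 1.59 with quartiles of 1.04 and 2.32, and *Akap12* ranked 2 after *Csnka2ip*. Among the 223 other listed genes of chromosome 10, the median was 1.30 and *Akap12* ranked 1, before *R3hdm2*, an R3H domain gene, at 4.68. Both read numbers of *Akap12* came out as whole numbers, as did the reads of 78.4% (input) and 78.8% (FMRP RIP) of the listed genes. Recovery of *Akap12* RNA by the beads or the antibody independent of FMRP was not tested.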

How the data were processed

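The authors deposited 1 table with CPM values, which are reads of a gene scaled to a common library size, for 1 input and 1 FMRP RIP library of mouse testis. Per the submitters' processing notes, the tool named is STAR, a read aligner, and the builds named are GRCm38 and mm10. The counting tool is not given in the sources used here. Other columns hold the authors' own fold changes, p-values and calls, and were not used.

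*Akap12* and the gene lists were chosen with earlier results of these data known. The log2 fold change was computed from CPM plus 1, with no test, since each group has 1 library. Only some values gave whole reads, so no count test was run. Library totals were recovered as the smallest for which every value is a multiple of 0.01 read and most are whole reads (within 0.005 read). Ratio intervals are exact Clopper-Pearson at 95% from rounded reads, and cover counting error only, since copies made by PCR are not separate molecules. The floor, 3 reads, was 0.0972 CPM (input) and 0.0822 CPM (FMRP RIP).

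Named were *Akap12*, the listed Akap-numbered genes, genes of the fixed lists, the 5 nearest genes by input and by both levels, and the 3 genes on either side by log2 fold change and by FMRP RIP CPM. A few genes that this rule names are not reported here. Other named genes were chosen after their values were seen. The rule also asked for the order by reads per kb, which was not run because no transcript lengths were used here. Symbols were matched directly or through a single synonym in RefSeq of GRCm38.p6. Alternatives were pseudocounts of 5, 0.1 and 0 CPM, a minimum of 1 CPM, scaling by reads of unlisted genes, and other widths of the input window. Functions were tested on simulated data. Values were computed in Python 3.11.15 with scipy 1.17.1, pandas 2.3.3 and numpy 2.4.6, and plotted with matplotlib 3.10.9.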

Additional observations from a re-analysis of the deposited data

How the results depend on the processing

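The log2 fold change of *Akap12* (5.49) was 5.43 with a pseudocount of 5 CPM and 6.43 when scaled by reads of unlisted genes, which multiplies each FMRP RIP value by 1.92 and raises all listed genes. Its rank of 4 among the listed genes was 3 with 5 CPM, 14 with 0.1 CPM and 9 without a pseudocount; a smaller pseudocount moves genes with few or no input reads above it. *Akap12* ranked 1 among the Akap-numbered genes and among genes of similar input in every alternative run, including a narrower and a wider input window. Its distance to the closest gene, an alternative chosen after seeing the data like the ranks by span and chromosome, also ranked 1 with 5 CPM, with 0.1 CPM and with the other scaling. On its chromosome it ranked 2 with 0.1 CPM.

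The median of the Akap-numbered genes (1.54) was 1.14 with 5 CPM and 2.46 with the other scaling. Of these genes, 7 were above 1, and this count was 8 with 0.1 CPM or no pseudocount and 9 with that scaling. The cAMP pathway genes above 1 (11) were 8 with 5 CPM, 12 with 0.1 CPM or no pseudocount, and 17 with that scaling. The share of all listed genes above 1 under these alternatives is not given here. Of 51 values under alternatives, 42 stayed within the counting interval, the ranks it allows or, for counts of genes, 1.5 times the reported count; ranks by span, chromosome and distance had to be equal. A listed gene could not change direction in these alternatives, so they say nothing about stability. No paired analysis was possible because there was only 1 input and 1 FMRP RIP library. Depth limits the ratios of genes low in the input.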
